A study of Mus musculus with 6 samples.

Results

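Bone matrix and osteoblast genes were followed in RNA-seq of mouse Achilles tendon. The 10 genes were Spp1, Ibsp, Bglap, Runx2, Sp7, Alpl, Dmp1, Phex, Sost and Mepe. They were chosen by name for their roles in osteoblasts, osteocytes and mineralized matrix, with earlier results of these data known. All 10 were found by symbol among the 54189 features of the RNA-seq count table. Of these, 2 genes (Spp1 and Ibsp) had 583 to 9579 reads per library, 2 genes (Runx2 and Alpl) had 79 to 112, and the other 6 had at most 15.

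RNA-seq and small RNA-seq were made from Achilles tendon of mice at 4 weeks of age. The Control mouse was Dicer f/f. The ScxHt mouse carried 1 ScxCre knock-in allele (ScxCre/+) with Dicer +/+, and the Dicer cKO mouse carried ScxCre/+ with Dicer f/f. Each genotype had 1 mouse, 1 RNA-seq library and 1 small RNA-seq library, so that how far mice of a genotype vary cannot be known from these data, and neither tests nor p-values are given. Cre was driven by the endogenous promoter of Scx, a transcription factor of tendon and ligament cells. The knock-in allele was present in both ScxHt and Dicer cKO but not in Control. The study describes this allele as inactivating endogenous Scx, so Dicer cKO and Control differ in Scx as well as in Dicer. The floxed Dicer alleles were shared by Control and Dicer cKO. The 3 pairwise comparisons share libraries and are not independent.

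Osteoblasts arise under the transcription factors RUNX2 and SP7, and lay down a collagen matrix that holds acidic glycoproteins such as osteopontin (Spp1) and bone sialoprotein (Ibsp). The phosphatase ALPL removes pyrophosphate, an inhibitor of mineral, and osteocalcin (Bglap) marks mature osteoblasts. Once enclosed in bone, the cells become osteocytes and make DMP1, PHEX, MEPE and sclerostin (Sost). Healthy tendon does not mineralize along its length, while its insertion into bone holds a mineralized fibrocartilage. Osteopontin is also made by macrophages and other cells outside bone. From published single-cell data of mouse Achilles tendon, the study names Spp1 as enriched in a group of tendon fibroblasts.

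The targeted genes were looked at first. Dicer1 had 1919 reads in Control, 2025 in ScxHt and 1621 in Dicer cKO, a count that also takes in transcripts lacking the floxed part. Scx had 1055, 686 and 371 reads, lowest in the Dicer cKO library. All 10 tendon markers, among them Scx, Tnmd, Mkx and Fmod, had reads in the 3 libraries, and their summed level was 136035, 119596 and 78179 CPM (reads scaled to a common library size) in Control, ScxHt and Dicer cKO. Without Col1a1 and Col1a2, which hold most of this sum, it was 14760, 19124 and 7990 CPM for the other 8 markers, with ScxHt above Control. Total counts were 14959399 to 16244232 per RNA-seq library and 8435829 to 10986541 per small RNA-seq library. A list of 10 skeletal muscle genes was summed with the mitochondrial transcripts, 45 features in all. They held 8.77% of the RNA-seq reads in Control, 5.16% in ScxHt and 13.6% in Dicer cKO. Muscle genes outside the list are not in this share. The part of these differences in the ratios given here was not tested.

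Libraries were compared in pairs, by the ratio of counts normalized with size factors of the pair. The baseMean of a gene is the mean of both normalized counts, and genes needed one above 50. A ratio below 0.60 was called lower, and a ratio above the reciprocal of 0.60, rounded to 2 decimals, was called higher; these are the limits of the study. Each ratio has a 95% exact counting interval. It covers no error other than that of counting, as reads of one molecule are not independent of each other. In bulk tendon, fewer cells of a type and less RNA per cell cannot be told apart.

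Of the 10 genes, 4 passed the minimum in every comparison (Spp1, Ibsp, Runx2 and Alpl) and 6 did not. Between Dicer cKO and Control, 2 of the 4 were lower (Spp1 and Ibsp) and 0 were higher. Over all 13404 genes compared, 4.19% were lower and 3.87% were higher. Between ScxHt and Control, 1 of the 4 was higher (Spp1) and 0 were lower, where 3.03% of 13462 genes were higher and 4.71% were lower. Between Dicer cKO and ScxHt, Spp1 and Ibsp were again lower and 0 of the 4 were higher, where 5.68% of 13455 genes were lower and 7.68% were higher. On the log2 scale, the 4 genes had a median ratio of -1.0 in Dicer cKO against Control, where all genes compared had a median of -0.03. It was 0.27 in ScxHt against Control (all genes 0.02) and -1.22 in Dicer cKO against ScxHt (all genes -0.03). The median of 4 genes lies between those that differed by several fold and those that did not, and describes neither.

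**Figure D1:**
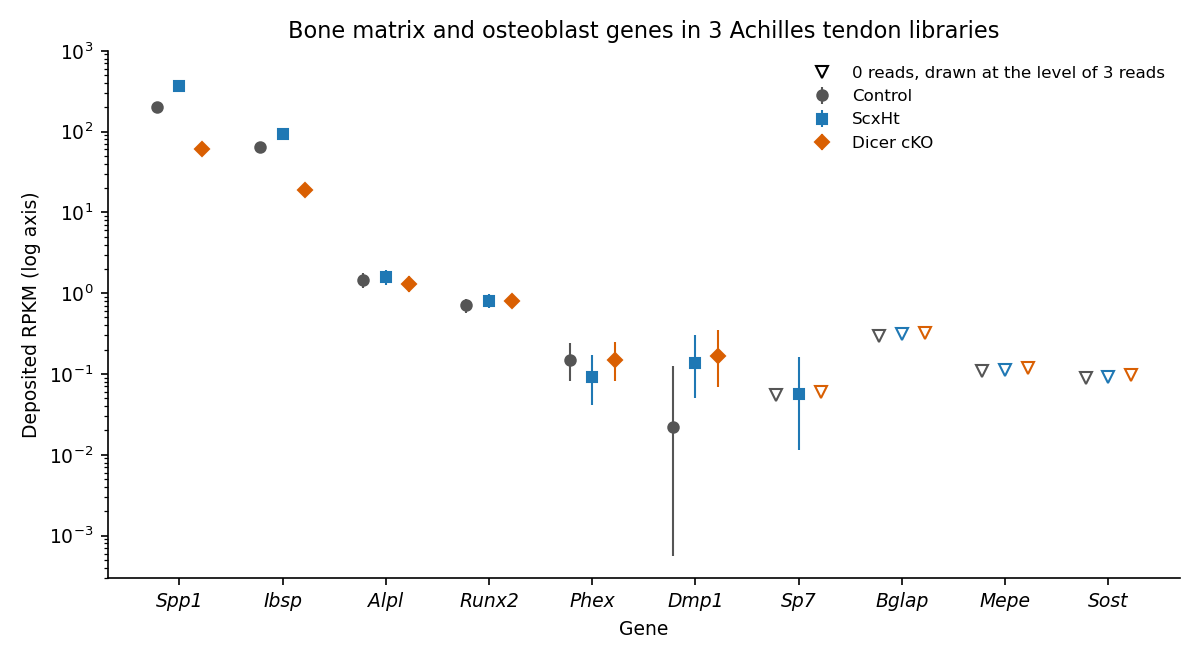
Deposited RPKM (log axis) of the 10 genes in the Control, ScxHt and Dicer cKO RNA-seq libraries, 1 point per library with the 95% Poisson interval of its read count; open triangles mark 0 reads and are drawn at the RPKM that 3 reads would give. Spp1 and Ibsp lie far above the other genes and are lowest in Dicer cKO, at 61.1 and 18.8 RPKM, while Alpl and Runx2 lie near 1 in every library.

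Per length, the genes differed widely in level. Spp1 and Ibsp were among the more abundant transcripts of the tendon, Alpl and Runx2 were near 1 RPKM (reads scaled by the length of the transcript and the size of the library), and the rest were at or below 0.169 RPKM. In the Control library, the Alpl level of 1.45 RPKM (95% exact Poisson interval 1.17 to 1.77) was above the Runx2 level of 0.704 (0.573 to 0.855). Phex, at 0.147 RPKM (0.0822 to 0.242), and Dmp1, at 0.0223 (5.64e-04 to 0.124), came next with overlapping intervals. The order of Bglap, Mepe, Sost and Sp7 cannot be given, since each had 0 reads in that library.

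Spp1 encodes osteopontin, a secreted phosphoprotein that binds integrins, CD44 and mineral. The gene lies at chr5:104435118-104441050 (GRCm38, plus strand). Control had 5412 reads, ScxHt 9579 and Dicer cKO 1506. The deposited levels were 202 RPKM, 369 RPKM and 61.1 RPKM, which ranked Spp1 121st of 26916 features with an RPKM above 0 in Control, 72nd of 27001 in ScxHt and 423rd of 26432 in Dicer cKO. ScxHt was highest and Dicer cKO lowest, and the 95% Poisson intervals of the counts did not overlap between any pair of libraries. Normalized, Dicer cKO held 0.289 of the Control level (95% counting interval 0.273 to 0.306) and 0.173 of the ScxHt level (0.164 to 0.183). ScxHt held 1.70 of the Control level (1.64 to 1.75), an interval that reached below the upper limit. The gap between the mice that both have Dicer was in the opposite direction to that between Dicer cKO and Control.

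Ibsp encodes bone sialoprotein, which binds collagen and nucleates mineral. It lies at chr5:104299171-104311469 (plus strand). Control had 2141 reads, ScxHt 3033 and Dicer cKO 583, at 63.7, 93.0 and 18.8 RPKM. By RPKM it ranked 387th in Control, 286th in ScxHt and 1851st in Dicer cKO. The libraries stood in the same order as for Spp1, again without overlap of their counting intervals. Dicer cKO held 0.283 of the Control level (0.258 to 0.310) and 0.212 of the ScxHt level (0.194 to 0.232). ScxHt held 1.36 of the Control level (1.28 to 1.43), which did not pass the upper limit.

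Within a library, the Spp1 level was 3.17 times the Ibsp level per length in Control (95% counting interval 3.02 to 3.34), 3.96 times in ScxHt (3.80 to 4.13) and 3.24 times in Dicer cKO (2.94 to 3.57). This ratio of both genes uses no size factor. Control and Dicer cKO did not differ in it beyond counting error, while ScxHt lay above both.

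Spp1 and Ibsp belong to a cluster of genes for acidic phosphoproteins of bone and tooth, which lie side by side on chromosome 5. The cluster also holds Dspp, Dmp1 and Mepe, and in the annotation used it is flanked by Sparcl1, which encodes a matricellular glycoprotein, and Pkd2, which encodes polycystin-2, a cation channel. Dspp and Mepe had 0 reads in the 3 libraries, and Dmp1 had 1, 6 and 7. Sparcl1 had 5926, 4545 and 6087 reads, with a ratio of 1.07 (1.03 to 1.11) between Dicer cKO and Control and 0.735 (0.707 to 0.764) between ScxHt and Control. Pkd2 had 9974, 12905 and 7693 reads, with ratios of 0.801 (0.777 to 0.825) and 1.24 (1.21 to 1.27). Neither flanking gene passed the limits in any comparison, so that the differences past the limits at this locus were those of Spp1 and Ibsp.

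**Figure D2:**
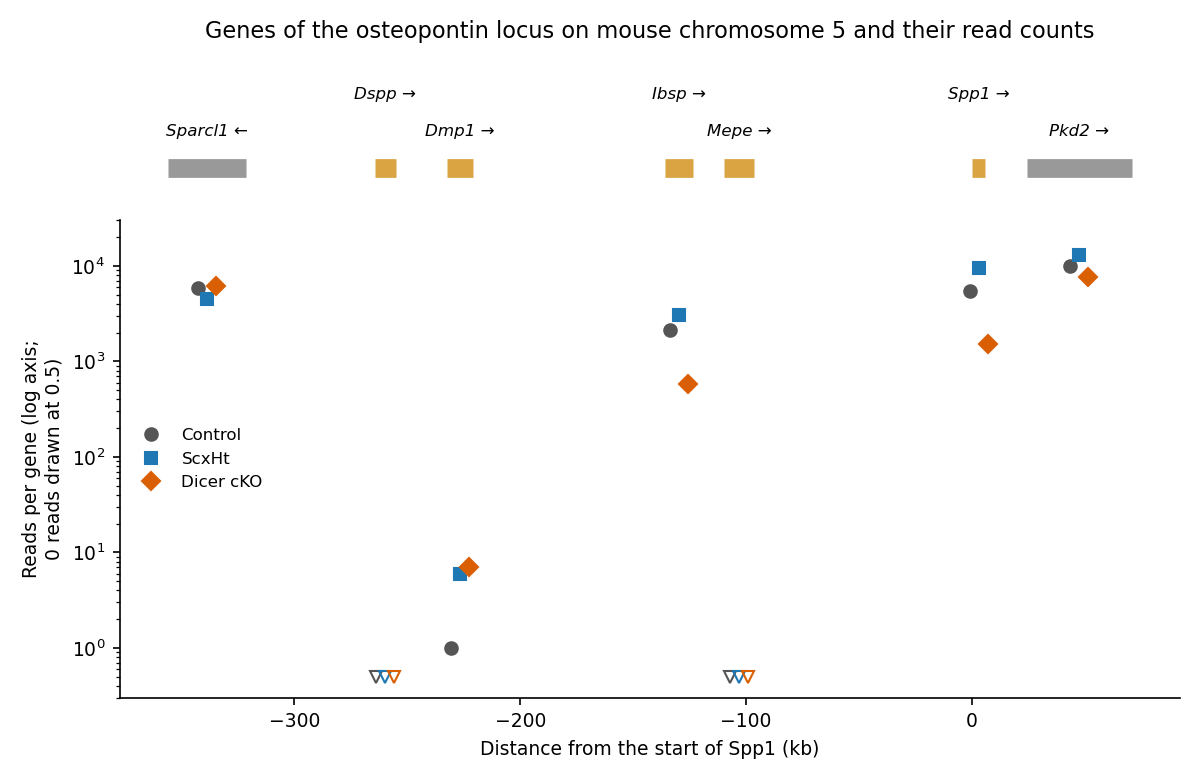
Read counts per gene (log axis, 0 reads drawn at 0.5) in the Control, ScxHt and Dicer cKO RNA-seq libraries, against distance in kb from the start of Spp1 on chromosome 5, with the genes drawn to scale above and arrows for their strand; points of a gene are set apart sideways for legibility. Ibsp and Spp1 are lowest in Dicer cKO, at 583 and 1506 reads, Sparcl1 and Pkd2 have at least 4545 reads in each library, and Dspp and Mepe have 0.

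The promoters of Spp1, Ibsp and Bglap are shown because they set both abundant genes beside a classical osteoblast gene that had no reads. Each stretch runs from 250 bases before to 50 bases after a RefSeq transcript start (GRCm38.p6), 5′ to 3′ on the strand of the gene. Capitals mark ACCACA, a form of the site bound by RUNX proteins. ACCACA and ACCGCA were both searched on either strand. The stretches are chr5:104434861-104435160 (plus strand) for Spp1, chr5:104299037-104299336 (plus strand) for Ibsp and chr3:88384417-88384716 (minus strand) for Bglap.
Spp1 promoter: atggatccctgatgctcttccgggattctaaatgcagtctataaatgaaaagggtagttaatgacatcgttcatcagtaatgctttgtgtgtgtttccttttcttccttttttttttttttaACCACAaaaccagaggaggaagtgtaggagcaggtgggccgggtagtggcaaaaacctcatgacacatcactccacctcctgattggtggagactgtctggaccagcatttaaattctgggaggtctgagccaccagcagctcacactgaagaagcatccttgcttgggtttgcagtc
Ibsp promoter: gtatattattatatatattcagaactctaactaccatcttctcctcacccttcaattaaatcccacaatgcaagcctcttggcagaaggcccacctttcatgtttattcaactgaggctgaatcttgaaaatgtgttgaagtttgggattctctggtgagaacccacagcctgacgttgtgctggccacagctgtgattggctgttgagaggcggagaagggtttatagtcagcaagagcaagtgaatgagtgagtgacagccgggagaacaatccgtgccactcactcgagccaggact
Bglap promoter: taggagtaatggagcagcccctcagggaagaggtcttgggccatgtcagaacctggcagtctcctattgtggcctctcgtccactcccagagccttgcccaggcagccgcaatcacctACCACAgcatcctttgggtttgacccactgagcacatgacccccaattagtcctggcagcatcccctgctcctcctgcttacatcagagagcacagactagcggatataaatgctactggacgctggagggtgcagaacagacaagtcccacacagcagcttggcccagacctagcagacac
ACCACA stood 128 bases before the start of Spp1 and 132 bases before that of Bglap, and neither motif stood in the Ibsp window. Of the 9 genes of the set with a promoter in the RefSeq table, 5 held a motif in at least 1 window (Bglap, Dmp1, Mepe, Spp1 and Runx2) and Ibsp, Alpl, Sost and Phex held none. These genes have 12 windows in the table, of which 5 held a motif, and a second window of Spp1 held none. Of 32851 promoters of the same length, 16.8% held ACCACA, 6.45% held ACCGCA and 22.4% held either. The genes with a motif in their window thus ranged from 0 reads (Bglap, Mepe) to 9579 (Spp1 in ScxHt).

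Runx2, the transcription factor required for osteoblast formation, lies at chr17:44495987-44814797 (minus strand). Control had 101 reads, ScxHt 112 and Dicer cKO 106, at 0.704, 0.804 and 0.802 RPKM. Against Control, the ratio was 1.09 (0.822 to 1.45) in Dicer cKO and 1.06 in ScxHt, and it was 1.04 between Dicer cKO and ScxHt. The libraries could not be told apart at this depth, and the first interval reaches from 0.822 to 1.45. Sp7 (osterix), which acts after RUNX2 in the osteoblast lineage and lies at chr15:102356606-102367182, had 0 reads in Control, 3 in ScxHt and 0 in Dicer cKO. These counts are at or under the floor of 3 reads, which would be 0.0543 to 0.0590 RPKM, so no ratio is given.

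Alpl, the tissue-nonspecific alkaline phosphatase, lies at chr4:137741733-137796384 (minus strand). It had 95 reads in Control, 100 in ScxHt and 79 in Dicer cKO, at 1.45, 1.57 and 1.31 RPKM. The Dicer cKO library was lowest, but all the counting intervals overlapped. Against Control, the ratio was 0.864 (0.632 to 1.18) in Dicer cKO and 1.01 in ScxHt, and it was 0.871 between Dicer cKO and ScxHt.

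Bglap, the osteocalcin gene at chr3:88383501-88384464 (minus strand), had 0 reads in the 3 libraries. The upper end of the Poisson interval of this count was 0.367 RPKM in Control, 0.379 in ScxHt and 0.399 in Dicer cKO. These limits are far under the 202 RPKM of Spp1 in Control. Mouse has near-identical copies of osteocalcin beside it. Bglap2 had 0 reads as well, and Bglap3, whose product is related to osteocalcin, had 7 reads in Control, 1 in ScxHt and 0 in Dicer cKO. Of the 100-base windows of the 440-base Bglap transcript, 56.3% also occur in Bglap2, and reads from these fit both genes. How the authors counted reads that fit several genes is not given in the sources used here, and if such reads were dropped, the limit for Bglap is too low.

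The osteocyte genes had few reads or none. Mepe, which encodes a phosphoglycoprotein of the matrix (chr5:104325329-104338611), had 0 reads in every library. The upper end of its Poisson interval was 0.135 RPKM in Control, 0.139 in ScxHt and 0.147 in Dicer cKO. Sost, which encodes the Wnt antagonist sclerostin (chr11:101962458-101967015), also had 0, with upper ends of 0.110, 0.113 and 0.119 RPKM. Neither was detectable at this depth.

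Dmp1, which encodes an acidic phosphoprotein that regulates mineral and phosphate (chr5:104202613-104214102), had 1 read in Control, 6 in ScxHt and 7 in Dicer cKO. Its ratio was 7.27 for Dicer cKO/Control with an interval from 0.934 to 328, and no difference was detectable. Phex, an endopeptidase gene on the X chromosome (157162075 to 157415312) tied to phosphate balance, had 15 reads in Control, 9 in ScxHt and 14 in Dicer cKO. Its ratio was 0.969 for Dicer cKO/Control and 0.575 for ScxHt/Control, where the interval ran from 0.222 to 1.40. Both genes were far under the minimum baseMean of 50. Of the members with enough reads, the Dicer cKO/Control intervals of Runx2 and Alpl thus lay wholly above those of Spp1 and Ibsp. The intervals of Dmp1 and of Phex (0.433 to 2.15) lay above them as well, on far fewer reads.

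Other genes of the osteoblast programme were taken from a list of 17 regulators. For Dicer cKO/Control, 10 passed the minimum, 0 were higher and 3 were lower, and their median log2 ratio was -0.45. Among the lower genes were Twist2, a basic helix-loop-helix factor that restrains RUNX2, at 0.281 (0.181 to 0.423), and the growth factor gene Bmp2 at 0.577 (0.429 to 0.771). The highest ratio was that of Bmp4, 1.15 (0.976 to 1.37). For ScxHt/Control, Twist2, at 0.595 (0.434 to 0.811), and Bmp2, at 0.525 (0.390 to 0.702), were lower as well. Twist2 had 111, 69 and 30 reads in Control, ScxHt and Dicer cKO, and Bmp2 had 135, 74 and 75. Twist2 was thus highest in Control, and Bmp2 did not differ beyond counting error between the libraries with the knock-in allele, at 1.12 (0.799 to 1.56).

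Bone matrix genes outside the set were described by a list of 7, of which 2 (Col1a1 and Col1a2) are also tendon markers. Of these, 6 passed, 0 were higher and 2 were lower for Dicer cKO/Control, with a median log2 ratio of -0.64. The lower genes were those of type I collagen, the main collagen of both bone and tendon: Col1a1 had 1261322, 925996 and 658168 reads and a ratio of 0.542 (0.540 to 0.543), and Col1a2 had a ratio of 0.574 (0.572 to 0.576). Postn, which encodes the matricellular protein periostin, was the only one with a ratio above 1, at 1.31 (1.27 to 1.36). It was also the 1 gene of the list that was higher for ScxHt/Control, at 1.99 (1.93 to 2.05). For Dicer cKO/ScxHt, Omd, which encodes osteomodulin, a small proteoglycan of bone, was lower at 0.438 (0.384 to 0.499), and Serpinf1, which encodes PEDF, a secreted serpin, was lower at 0.502 (0.491 to 0.513). Ifitm5, an osteoblast membrane protein gene, was the 1 gene below the minimum, with 13, 8 and 2 reads.

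Of 11 genes that promote or restrain mineralization, 9 passed, 1 was higher and 3 were lower for Dicer cKO/Control, with a median log2 ratio of -0.48. Slc20a1 and Slc20a2 both encode sodium-phosphate cotransporters and differed in opposite directions. Slc20a1 had 819, 688 and 338 reads in Control, ScxHt and Dicer cKO and a ratio of 0.429 (0.376 to 0.487), whereas Slc20a2 had 510, 465 and 881 reads and a ratio of 1.79 (1.61 to 2.0). Enpp1, which makes pyrophosphate outside the cell, had 2434, 3093 and 1098 reads and a ratio of 0.468 (0.436 to 0.503). Nt5e, whose product CD73 makes adenosine from AMP downstream of ENPP1, had 750, 1054 and 399 reads and a ratio of 0.552 (0.488 to 0.625). The lower genes thus included a maker of the inhibitor of mineral and a carrier of phosphate, while Alpl, which breaks the inhibitor down, was not past the limits. For ScxHt/Control 0 of the 9 were past the limits, and the median was 0.13. For Dicer cKO/ScxHt, Phospho1, a phosphatase gene of matrix vesicles, was higher beside Slc20a2, at 1.81 (1.29 to 2.55), and Smpd3, a sphingomyelinase gene of skeletal cells, was lower beside Slc20a1, Enpp1 and Nt5e, at 0.518 (0.358 to 0.740).

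The partners of sclerostin and of the phosphate regulators were a list of 11, among them the Wnt coreceptors LRP4, LRP5 and LRP6 and the hormone FGF23 with its receptor. Of these, 7 passed and 0 were past the limits in any comparison. For Dicer cKO/Control, the ratios ran from 0.718 (0.682 to 0.756) for Fgfr1, an FGF receptor gene, to 1.15 (0.916 to 1.45) for Pdpn, which encodes podoplanin, a membrane glycoprotein of early osteocytes and lymphatic vessels. The median log2 ratio was -0.03, equal to that of all genes compared.

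**Figure D3:**
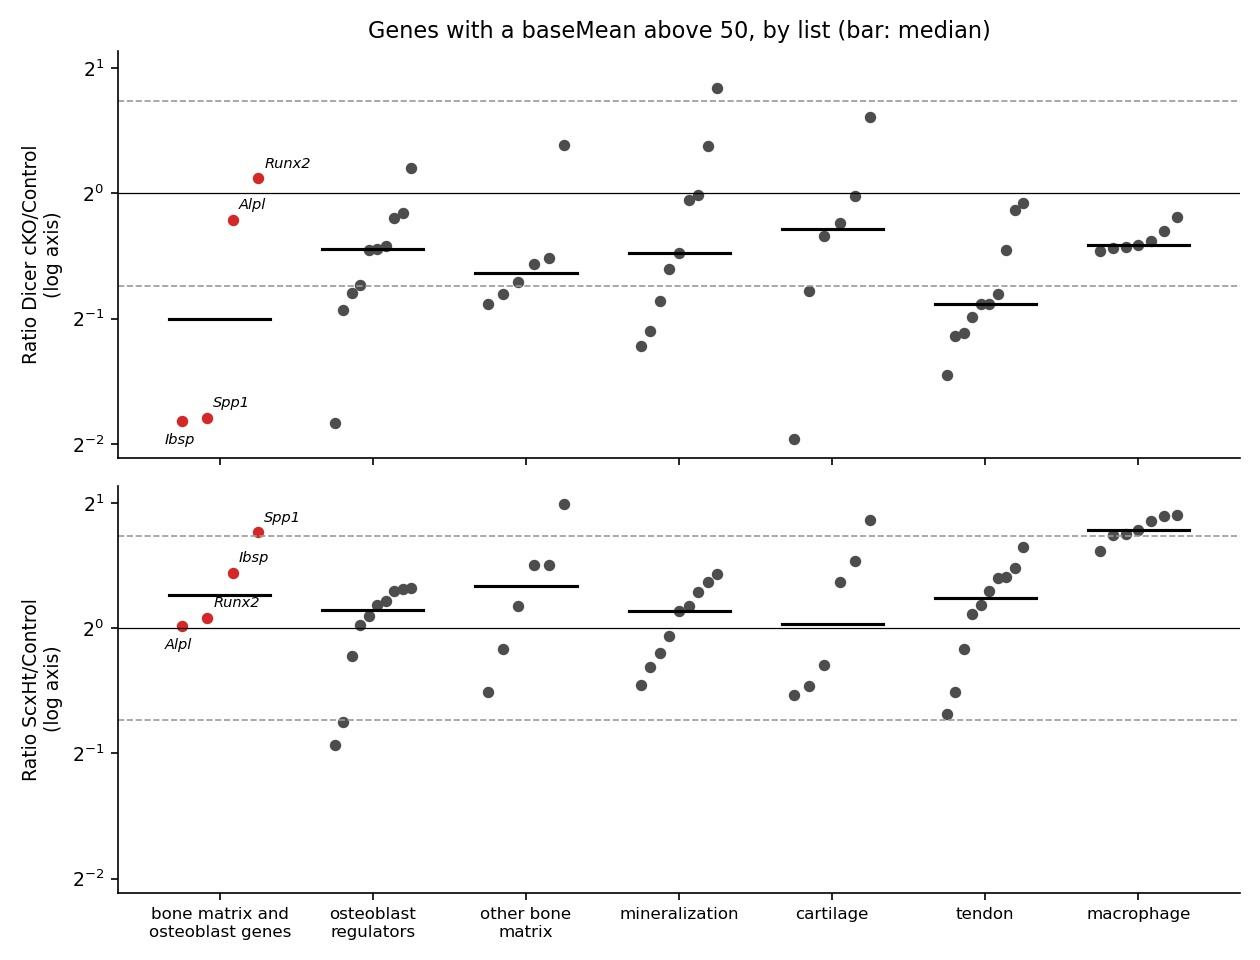
Ratio Dicer cKO/Control (upper panel) and ScxHt/Control (lower panel) of each gene with a baseMean above 50, on log axes, for the 10 bone matrix and osteoblast genes (red, 4 passed) and for lists of related and other cell types (grey); bars mark list medians and dashed lines the upper and lower limits. Spp1 and Ibsp are below 0.30 in the upper panel and above 1 in the lower one, and the macrophage genes lie below 1 in the upper and above 1 in the lower panel.

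Cells other than tendon fibroblasts can also make osteopontin, and their marker lists were read beside Spp1 and Ibsp. All 7 macrophage markers passed the minimum. Their ratios ran from 0.728 (Cd163) to 0.877 (Adgre1) for Dicer cKO/Control, and 0 of 7 were past the limits. For ScxHt/Control, 6 of 7 were higher, with ratios of 1.53 to 1.87, and for Dicer cKO/ScxHt all 7 were lower, at 0.395 to 0.519. Their summed level was 239 CPM in Control, 450 in ScxHt and 191 in Dicer cKO, and none was at 0. Each macrophage marker was thus nearer to 1 than Spp1 and Ibsp between Dicer cKO and Control.

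Of 9 osteoclast genes, 3 passed (Acp5, Ctsk and Tnfrsf11a), and the summed level was 166 CPM in Control, 270 in ScxHt and 143 in Dicer cKO. Ctsk, which fibroblasts also express, held most of this sum, with 143, 239 and 122 CPM. Markers that define mature osteoclasts had few reads: Calcr had 4, 0 and 11, Mmp9 had 1, 1 and 0, and Ocstamp had 1, 3 and 0. Of 13 cartilage genes, 6 passed, with a summed level of 956, 1009 and 723 CPM. Among these, Sox9, the transcription factor of chondrocytes, was lower in Dicer cKO than in Control at 0.256 (0.210 to 0.311), and Acan, which encodes aggrecan, was lower at 0.583 (0.557 to 0.610). The other 4 were not past the limits, with ratios from 0.791 for Col11a2 to 1.53 for Matn3, and for ScxHt/Control 1 of the 6, Hapln1, was higher at 1.82 (1.69 to 1.97). The genes of hypertrophic cartilage were near 0, with 3, 4 and 1 reads for Col10a1, 0, 1 and 2 for Ihh and 4, 4 and 0 for Mmp13. Of the 10 tendon markers, 7 were lower for Dicer cKO/Control (ratios from 0.365 for Scx to 0.948 for Tnmd over the list, median log2 ratio -0.88) and 0 were past the limits for ScxHt/Control, where 7 of the 10 had a ratio above 1 and the median log2 ratio was 0.24. Tendon markers other than Scx and the collagens were thus highest in ScxHt, as Spp1, Ibsp and the macrophage markers were. The part of these cell types in the Spp1 and Ibsp ratios was not tested.

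Markers of muscle, nerve sheath and blood differed the other way from Spp1 and Ibsp. For Dicer cKO/Control, 7 of 10 skeletal muscle genes, 6 of 7 Schwann cell genes that passed and 5 of 5 erythroid genes that passed were higher, with median log2 ratios of 0.93, 2.90 and 1.18. The summed Schwann cell level was 234 CPM in Control, 304 in ScxHt and 740 in Dicer cKO. Pmp22 held most of this sum in Control and ScxHt, at 191 and 260 CPM, and had 267 in Dicer cKO. Of 6 adipocyte genes 1 was lower and of 5 endothelial genes 0 were past the limits. Size factors were also replaced by total counts without the 10 listed muscle genes and mitochondrial transcripts. The Dicer cKO/Control ratio was then 0.319 for Spp1 and 0.312 for Ibsp, both below 0.60. Other muscle genes stayed in these totals, and the part of muscle tissue in both ratios was not tested.

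Genes with a profile near those of Spp1 and Ibsp were sought among 8404 genes with a baseMean above 200 over the 3 libraries. Likeness was the Euclidean distance between the pairs of log2 ratios ScxHt/Control and Dicer cKO/Control, which rests on 3 libraries only. The genes nearest to Spp1 were Myoc, at a distance of 0.26, Ibsp at 0.32, Anxa8 at 0.36, RP24-299A7.2 at 0.53 and Prg4 at 0.74. Those nearest to Ibsp were RP24-299A7.2 at 0.30, Anxa8 and Spp1 at 0.32, Tmem100 at 0.51 and Mt2 at 0.56. Myoc, which encodes the secreted glycoprotein myocilin, had 2235 reads in Control, 4695 in ScxHt and 659 in Dicer cKO. Anxa8, an annexin gene, had 1515, 2279 and 509 reads. Prg4, which encodes lubricin, the lubricant of joint and tendon surfaces, had 14611, 25054 and 6761. All were highest in ScxHt and lowest in Dicer cKO, as the measure requires. Each of Spp1 and Ibsp was thus among the 5 nearest genes of the other.

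**Figure D4:**
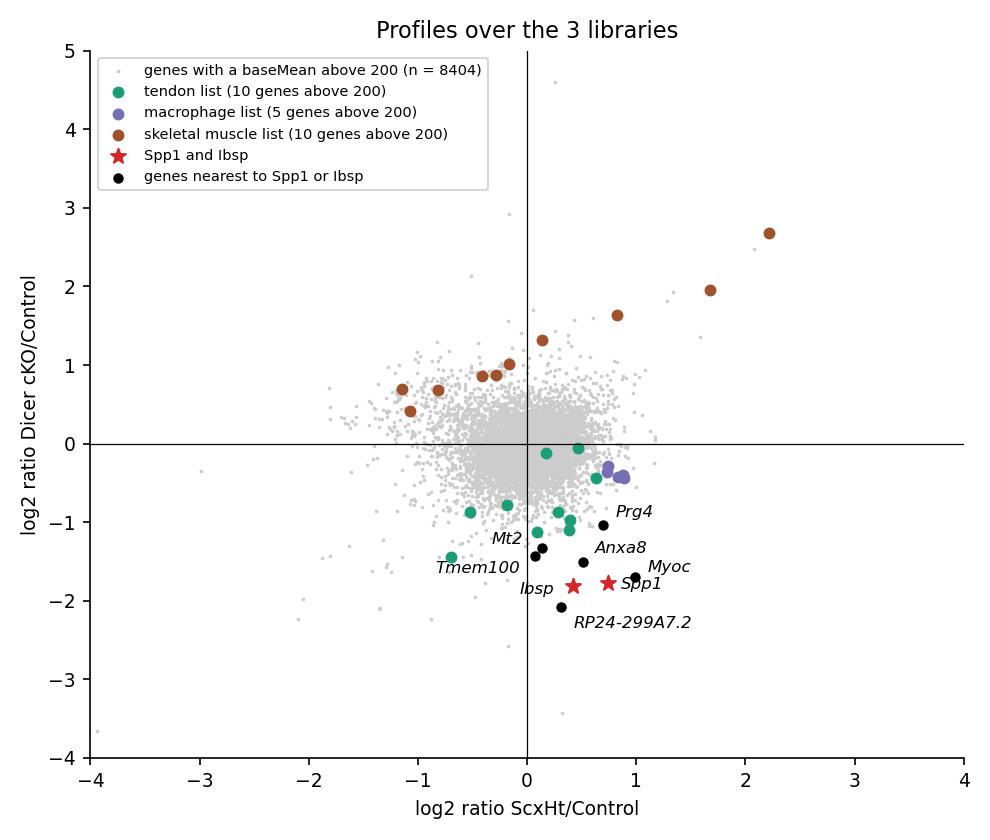
Log2 ratio Dicer cKO/Control against log2 ratio ScxHt/Control, with size factors over the 3 libraries, for 8404 genes with a baseMean above 200 (grey, 3 of them outside the plotted range), with tendon, macrophage and skeletal muscle markers, Spp1 and Ibsp (stars) and the genes nearest to them (black) marked. Spp1 and Ibsp lie at the lower right, at 0.75 and 0.42 on the horizontal and -1.78 and -1.81 on the vertical axis, below the macrophage markers and apart from the muscle markers.

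Dicer cuts hairpin precursors into mature miRNAs, and Runx2 is a textbook target of several miRNAs, so the miRNAs listed with it were read in the small RNA-seq libraries of the same tendons. A miRNA pairs with sites in the 3′ UTR of an mRNA mainly through its seed, bases 2 to 8. The mature sequences of those with enough reads or a shared seed are printed from RefSeq with the seed in capitals, because the seed decides which sites can be matched.
miR-338-3p: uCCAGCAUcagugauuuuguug
miR-205-5p: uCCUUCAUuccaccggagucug
miR-30c-5p: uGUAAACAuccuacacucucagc
miR-204-5p: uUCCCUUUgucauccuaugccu
miR-211-5p: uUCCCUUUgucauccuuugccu
miR-23a-3p: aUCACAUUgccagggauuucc
miR-218-5p: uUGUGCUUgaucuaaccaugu
miR-135a-5p: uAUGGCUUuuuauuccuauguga
miR-204-5p and miR-211-5p have the same seed, and the other seeds differ.

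The 3904-base 3′ UTR of the transcript Runx2-202 (GENCODE vM21, GRCm38) was searched for the reverse complement of each seed. Of 10 mature miRNAs found in the table, 9 had a match, and miR-135a-5p had none. They were listed because Runx2 is their textbook target, and the share of all miRNAs with a match was not computed. The count of 9 is thus no result about the list. The sites below are shown with neighbouring bases in the direction of the transcript, to set beside the seeds above. Capitals mark the match, together with the A opposite base 1 of the miRNA where it is present, and the coordinates are those of the capitals on the minus strand.
miR-338-3p site, chr17:44606663-44606670: tactagcatgaaATGCTGGAgacatgtg
miR-205-5p site, chr17:44606819-44606826: ttttcacgatgtATGAAGGAgatgctct
miR-30c-5p site, chr17:44604430-44604437: ctgtttacttcaTGTTTACAaataattg
miR-204-5p and miR-211-5p site, chr17:44607491-44607497: tggtgcactcagAAAGGGAcaagaggca
miR-204-5p and miR-211-5p site, chr17:44604117-44604123: actctgaacttcAAAGGGActatttgta
miR-23a-3p site, chr17:44606894-44606900: tccttcaggcatAATGTGAttttttttt
miR-30c-5p had 3 matches in all, miR-218-5p had 2, and miR-338-3p, miR-205-5p and miR-23a-3p had 1 each. A match of letters is not evidence that the miRNA acts there.

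Of 16 hairpin loci for these miRNAs, 13 passed the minimum baseMean of 15 for Dicer cKO/Control, 4 were higher and 3 were lower. Mir133a-1 and Mir133a-2 are counted apart here, as are Mir135a-1 and Mir135a-2. Over all 334 small RNA features compared, 8.38% were higher and 4.19% were lower. Mir338 had 354 reads in Control, 335 in ScxHt and 892 in Dicer cKO, a ratio of 2.89 (2.55 to 3.28) between Dicer cKO and Control and of 1.07 (0.915 to 1.24) between ScxHt and Control. Mir205 had 94, 83 and 160 reads, with ratios of 1.95 (1.5 to 2.54) and 0.995 (0.731 to 1.35). Both were highest in Dicer cKO and differed little between Control and ScxHt. Mir133a-1 had 18421, 18367 and 29615 reads, with ratios of 1.84 (1.81 to 1.88) and 1.12 (1.10 to 1.15), and Mir133a-2 had nearly the same counts. How reads that fit both loci were counted is not given in the sources used here. miR-133a is a miRNA of muscle. The share of the listed muscle genes and mitochondrial transcripts in the RNA-seq libraries of the same tendons also differed, as given above.

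Mir34c, with 108, 81 and 54 reads, was lower in Dicer cKO than in Control at 0.573 (0.405 to 0.802). The Mir135a loci, with 38 or 41 reads in Control, 13 in ScxHt and 16 in Dicer cKO, were lower at 0.483 and 0.447, and also lower for ScxHt/Control at 0.385 and 0.357. For ScxHt/Control, 2 of 13 loci, both Mir135a, were thus lower and 0 were higher. These 2 loci had the same counts in ScxHt and in Dicer cKO. How reads that fit both were counted is not given here either, so they may not be separate observations. Of 332 features, 6.93% were lower and 3.01% were higher. Mir204 had 2597, 2754 and 2410 reads and ratios of 1.06 and 1.19, and Mir211, with the same seed, had at most 9 reads. Mir23a, with 32740, 27481 and 23790 reads, had the most reads of the list and a Dicer cKO/Control ratio of 0.833 (0.819 to 0.847). For Dicer cKO/ScxHt, 2 of the 11 loci that passed were higher (Mir338 at 2.66, 2.35 to 3.03, and Mir205 at 1.93, 1.47 to 2.54) and 0 were lower, where 11.2% of 322 features were higher and 2.17% were lower. Runx2 itself had ratios of 1.04 to 1.09 in the 3 comparisons, beside miRNA ratios on both sides of 1.

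**Figure D5:**
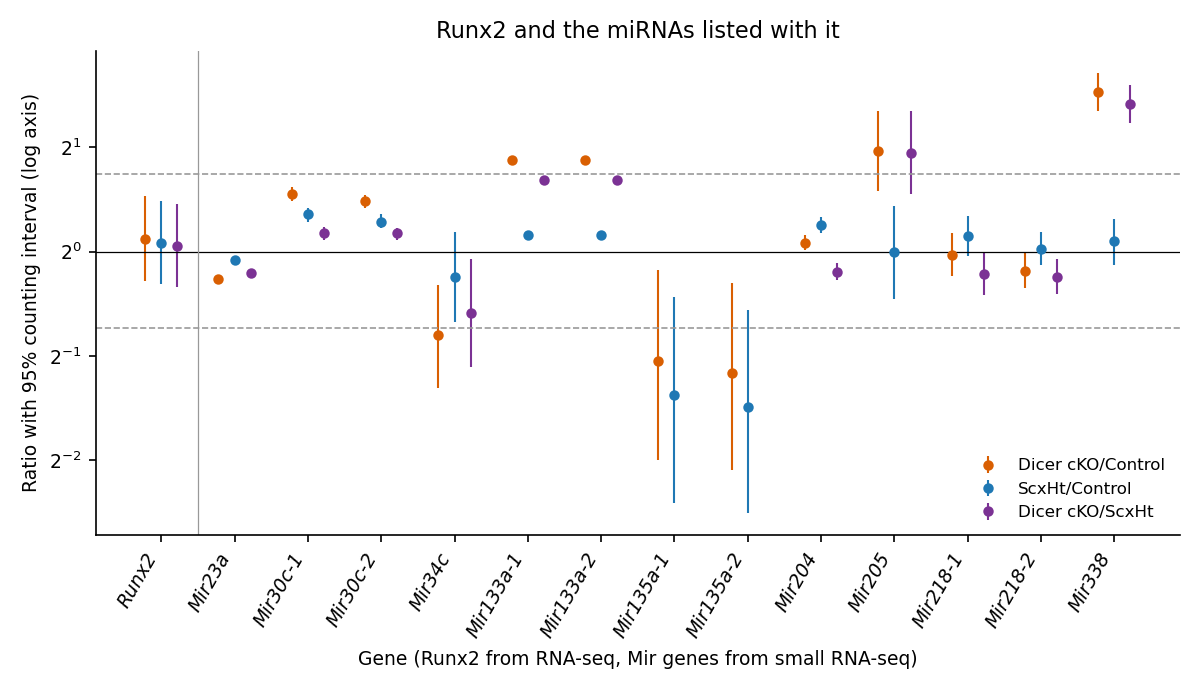
Ratio with its 95% counting interval (log axis) of Runx2 in RNA-seq and of the 13 hairpin loci with enough reads in small RNA-seq, for Dicer cKO/Control (orange), ScxHt/Control (blue) and Dicer cKO/ScxHt (purple, 11 loci); dashed lines mark the upper and lower limits. Mir338 is at 2.89 and 2.66 against Control and ScxHt, the Mir135a loci are low in both comparisons with Control, and the Runx2 intervals all hold 1.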

How the data were processed

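Total RNA and small RNA of Achilles tendon were sequenced from 1 Control, 1 ScxHt and 1 Dicer cKO mouse, 6 libraries in all. The submitters' processing notes name TopHat, Bowtie2, HTSeq and DESeq2 on GRCm38 (mm10); their versions, the annotation release and the strand setting are not given in the sources used here. The authors deposited raw read counts per gene, without normalization, and RPKM values, which scale the same counts by feature length and library total. In RNA-seq, 463 lines that repeat an earlier line were dropped before size factors were estimated, and in small RNA-seq 3. Where Pdpn had differing lines, the first was used. RPKM values of RNA-seq gave levels between genes, and those of small RNA-seq were not used. Some deposited counts were rounded by the authors, among them that of Bglap3 in ScxHt.

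Counts were divided by median-of-ratios size factors of each pair of libraries (DESeq2 1.42.0 in R 4.3.3). The minimum baseMean (50 for RNA-seq, 15 for small RNA-seq) and the limits of the ratio follow the study. Ratios, 95% Clopper-Pearson intervals, exact Poisson intervals and a floor of 3 reads came from Python 3.11.15 (scipy 1.17.1, numpy 2.4.6, pandas 2.3.3), figures from matplotlib 3.10.9. The procedure was tested on simulated data. Intervals cover counting error only.

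The genes, the 20 lists around them and the comparisons were chosen with earlier results of these data known, and the study's own list of genes that differ in these libraries includes Spp1 and Ibsp, so their direction here is no independent evidence. Genes were named as members, as genes of a list past the limits or at its ends, as defining markers, or as the 5 nearest profiles to Spp1 and to Ibsp. Not every gene named by this rule is reported here. Abcg2, first listed with the locus, lies on chromosome 6 in the annotation and was left out of its description. Gene positions and the Runx2 3′ UTR came from GENCODE vM21. Promoters of 9 of the 10 genes and 10 of 12 mature miRNAs were found in the RefSeq tables. Alternatives were edgeR 4.0.16 TMM factors, total counts and size factors over all 3 libraries. Total counts were also taken without the most abundant features, or without the listed muscle genes and mitochondrial genes. Other minimum baseMeans and limits, a pseudocount of 1 and ratios of the deposited RPKM were used as well.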

Additional observations from a re-analysis of the deposited data

How the results depend on the processing

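Of 126 recomputed ratios of single members, 119 moved by less than their counting interval, 7 moved by more and 0 changed direction past a limit. Over all scalings, Spp1 ranged from 0.289 to 0.319 for Dicer cKO/Control, from 1.68 to 1.82 for ScxHt/Control and from 0.166 to 0.182 for Dicer cKO/ScxHt, and Ibsp from 0.283 to 0.312, from 1.34 to 1.46 and from 0.203 to 0.222. With a minimum baseMean of 10, Phex joined the genes compared. Of the members, 1 was then lower for ScxHt/Control and 1 higher for Dicer cKO/ScxHt, both Phex, and the median log2 ratio was -0.21 for Dicer cKO/Control and -0.20 for Dicer cKO/ScxHt. With a minimum of 200, which leaves Spp1 and Ibsp, the medians were -1.81, 0.60 for ScxHt/Control and -2.38. The 1 higher member for ScxHt/Control, Spp1, became 0 with limits of 2 and 0.5, and 0 where the whole interval had to pass the limit. Total counts moved the median of all genes to 0.12 for ScxHt/Control. Total counts without the listed muscle genes and mitochondrial genes moved it to 0.11 for Dicer cKO/Control. No paired analysis was possible because each genotype had 1 library. Without replicates, the depth limits what can be said of the 6 members under the minimum, and no number of reads gives the spread between mice.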

Other observations

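Receptors of osteopontin and bone sialoprotein were expressed in each library. All 9 genes of the list (integrin subunits that bind these proteins, and Cd44, a hyaluronan receptor that also binds osteopontin) passed the minimum, and 0 were past the limits in any comparison. For Dicer cKO/Control, the ratios ran from 0.638 (95% counting interval 0.598 to 0.681) for Cd44 to 1.32 (1.11 to 1.57) for Itga8, an integrin alpha subunit gene, and the median log2 ratio was -0.21. Cd44 had 2464 reads in Control, 2565 in ScxHt and 1515 in Dicer cKO. For ScxHt/Control the median was 0.01, and the highest ratio was 1.41 (1.16 to 1.72) for Itgb3, the integrin subunit of the classical osteopontin receptor.

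The ligands that govern osteoclasts were read beside the bone genes. Tnfsf11, which encodes the osteoclast differentiation factor RANKL, had 0 reads in the 3 libraries. Its decoy receptor osteoprotegerin (Tnfrsf11b) had 360 reads in Control, 603 in ScxHt and 222 in Dicer cKO, at 0.640 of the Control level in Dicer cKO (0.539 to 0.759) and 1.60 of it in ScxHt (1.41 to 1.83). Dicer cKO held 0.406 of the ScxHt level (0.346 to 0.474), which was past the limit. Csf1, the growth factor gene of macrophages and osteoclasts, had 1089, 1215 and 783 reads and a Dicer cKO/Control ratio of 0.747 (0.680 to 0.819). Ctsk, which encodes the collagenase cathepsin K of osteoclasts and fibroblasts, had 2322, 3774 and 1830 reads and a Dicer cKO/ScxHt ratio of 0.534 (0.505 to 0.565).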
